A study of Homo sapiens with 6 samples.

Results

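The genes of the ubiquitin proteasome system that the study's lists of genes with high or low expression in SiHa cells hold are described here. They were chosen by symbol, from the names of proteasome subunits (PSMA to PSMG), E2 enzymes (UBE2), UBE3 ligases, E1 enzymes (UBA), ubiquitin genes such as UBB, cullins (CUL), ubiquitin specific proteases (USP) and F-box proteins (FBXO, FBXW, FBXL). The rule took 140 of the 8946 symbols on either list. Of these members, 125 stood on the high list, 15 on the low list and 0 on both. The high list held 4531 symbols and the low list 4419, with 4 symbols on both.

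SiHa is an established cell line from a squamous cell carcinoma of the cervix that carries human papillomavirus DNA. Cells were seeded in transwell inserts, in which cells that pass the membrane can be separated from those that stay, and were scraped 10 h after seeding, with the scraped cells pooled. Bulk RNA-seq was made from 3 libraries of the migrated fraction and 3 of the non-migrated fraction of this single, untreated line. The study's design text calls the libraries 3 paired sets, with no word on separate cultures. Assigned fragments ran from 18226280 to 33466924 per library.

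The lists set limits on what can be said of a member. Each gives symbols and positions on hg19 with no expression value, so no member has a level, a fold change or a value per library, and no values just inside or outside the threshold of a list can be given. The labels and headers do not state by which criterion a gene entered a list. The lists were read as a high or low level in the line, not as a change between the migrated and non-migrated fractions. The separate table of values per library identifies its 26006 loci by assembly IDs without gene names, so no locus could be tied to a member. In bulk libraries, fewer cells of a type and less RNA per cell cannot be told apart. Of 11 markers of a cervical epithelial line, the high list held KRT8, KRT18, KRT17, CDKN2A and MKI67, the low list held KRT5, and 5 (KRT19, KRT14, TP63, EPCAM and CDH1) were on neither. Of 7 markers of leukocytes, endothelium and fibroblasts, the low list held PTPRC, CD3D and COL1A2 and the high list held 0.

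Ubiquitin is a small protein that is attached to other proteins by a cascade. An E1 enzyme activates it, an E2 enzyme carries it, and an E3 ligase selects the substrate. Cullin RING ligases are modular E3 enzymes in which a cullin scaffold holds a RING protein and an exchangeable substrate receptor, such as an F-box protein. Deubiquitinating enzymes, of which the USP proteins are the largest family, remove ubiquitin. Proteins with ubiquitin chains are degraded by the proteasome, a barrel of alpha and beta rings (the 20S core) capped by a regulatory particle (19S) whose base unfolds substrates and whose lid removes the chains. Papillomavirus oncoproteins act through this machinery, since E6 directs p53 to the ligase UBE3A.

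On the high list stood 89.3% of the members, and the same list held 50.6% of all symbols on either list. Since the rule took the members from these lists, the difference is a description of the selection and carries no test. A denominator outside the lists was taken from RefSeq. Of the 247 RefSeq protein coding genes that carry names of the pattern, 124 (50.2%) stood on the high list, beside 21.2% of all 20056 protein coding genes. The low list held 10 of the 247 (4.05%), beside 18.1% of all protein coding genes, and 113 (45.7%) were on neither list. A gene on neither list has no reported state, and nothing follows from its absence. Another 6 members have symbols that are not current RefSeq protein coding symbols: FBXO18 on the high list, and UBE2NL, USP12-AS1, USP12-AS2, USP17 and USP41 on the low list.

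**Figure D1:**
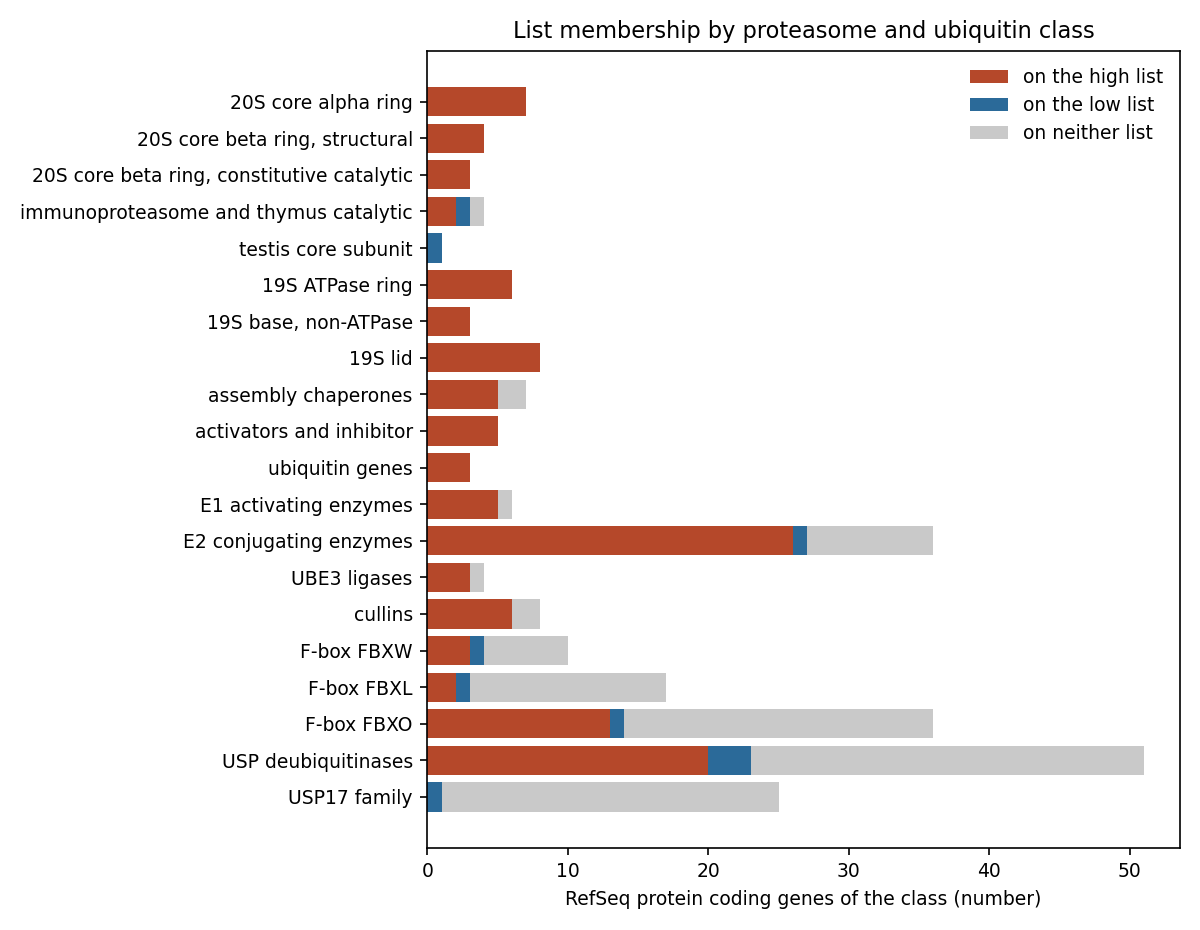
Horizontal bars give the number of RefSeq protein coding genes of each proteasome or ubiquitin class on the high list (red), the low list (blue) and neither list (grey). The alpha ring, structural beta, constitutive catalytic and 19S classes are red throughout, while grey makes up 82.4% of the FBXL bar and 54.9% of the USP bar.

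Of 48 RefSeq genes in the proteasome classes, 43 (89.6%) were on the high list, 2 on the low list and 3 on neither. The alpha ring, which forms the gate of the barrel, had 7 of 7 subunits on the high list (PSMA1 to PSMA7). The structural beta subunits PSMB1, PSMB2, PSMB3 and PSMB4 were all on it. So were the 3 constitutive catalytic subunits, PSMB5, PSMB6 and PSMB7, which carry the chymotrypsin-like, caspase-like and trypsin-like activities. The core of widely used subunits was thus on the high list with 14 of 14 genes.

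The 19S particle showed the same complete membership, with 17 of 17 genes. Its 6 ATPases, PSMC1 to PSMC6, which form the unfolding ring, were on the high list. The other base subunits on the list were the scaffolds PSMD1 and PSMD2 and the ubiquitin receptor PSMD4. The lid contributed 8 of 8 genes: PSMD3, PSMD6, PSMD7, PSMD8, PSMD11, PSMD12, PSMD13 and PSMD14, the last of which is the deubiquitinase that cuts chains from incoming substrates. PSMD2 (chr3:184016497-184026842, hg19) lies wholly inside the deposited span of EIF2B5 (chr3:183853052-184402546), also on the high list. The deposited span of EIF2B5 was not checked against RefSeq, so whether the genes themselves overlap is not settled.

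The alternative caps PSME1 and PSME2 (interferon inducible PA28), PSME3 (the nuclear PA28 form) and PSME4 (PA200), and the inhibitor PSMF1, were on the high list, 5 of 5. Of 7 assembly chaperones, PSMG1 and PSMG2, which build the alpha ring, and PSMD5, PSMD9 and PSMD10, which build the base, were on it. PSMG3 and PSMG4, the partner chaperones of alpha ring assembly, were on neither list.

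The specialised catalytic and core subunits were spread over both lists. The immunoproteasome replaces the constitutive catalytic subunits with PSMB8, PSMB9 and PSMB10 and is known for the cutting of peptides for antigen presentation. PSMB8 (chr6:32808494-32812480) and PSMB10 (chr16:67968405-67970990) were on the high list and PSMB9 was on neither. PSMB11, the catalytic subunit of the thymus proteasome of cortical epithelium, was on the low list. PSMA8, the alpha subunit of the testis, which takes the place of PSMA7 during sperm formation, was on the low list as well. PSMB11 and PSMA8 were the 2 proteasome genes on it.

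PSMB5 and PSMB11 are close neighbours with opposite membership. On hg19 the deposited span of PSMB5 runs over chr14:23485752-23504439 on the minus strand and that of PSMB11 over chr14:23511376-23513269 on the plus strand, with 6936 bases between them. The genes therefore point away from each other, and the start of each faces the other. The 200 bases that end 51 bases before each start are printed below to show how the upstream sequences of such a pair differ, with those of PSMA8, the other proteasome gene of the low list. They are RefSeq promoter sequences on GRCh38.p14, from the first listed of 2 starts for PSMB5 and the 1 start of PSMB11 and of PSMA8, 5′ to 3′ on the strand of the gene, with matches to CCAAT (either strand) in capitals for PSMB5 and PSMB11 and a match to TATAAA (either strand) in capitals for PSMA8.
PSMB5, chr14:23035271-23035470, minus strand: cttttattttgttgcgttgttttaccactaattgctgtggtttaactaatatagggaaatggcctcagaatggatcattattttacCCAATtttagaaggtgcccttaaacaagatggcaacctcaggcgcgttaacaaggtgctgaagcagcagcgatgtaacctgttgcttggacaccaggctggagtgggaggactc
PSMB11, chr14:23041962-23042161, plus strand: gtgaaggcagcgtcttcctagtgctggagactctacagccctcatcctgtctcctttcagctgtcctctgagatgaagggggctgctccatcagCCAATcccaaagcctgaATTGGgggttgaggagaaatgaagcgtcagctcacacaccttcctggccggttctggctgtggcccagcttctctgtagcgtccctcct
PSMA8, chr18:26133619-26133818, plus strand: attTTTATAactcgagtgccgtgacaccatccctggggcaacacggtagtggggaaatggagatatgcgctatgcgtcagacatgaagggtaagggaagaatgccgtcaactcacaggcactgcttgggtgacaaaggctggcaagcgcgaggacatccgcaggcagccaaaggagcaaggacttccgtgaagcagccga

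The PSMB5 stretch holds 4 CpG dinucleotides at 44.0% GC, and the PSMB11 stretch also holds 4, at 57.0% GC. The PSMA8 stretch holds 11 at 55.0% GC. CCAAT, the box bound by the factor NF-Y, is present upstream of both PSMB5 and PSMB11, so that these letters do not separate the gene of the high list from that of the low list.

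In the ubiquitin classes 81 of 196 RefSeq genes (41.3%) were on the high list and 54.6% on neither, beside 60.8% of all protein coding genes on neither. In the upper steps, which are the ubiquitin genes, E1 enzymes, E2 enzymes, UBE3 ligases and cullins, 43 of 57 genes (75.4%) were on the high list. Among F-box genes it was 18 of 63 (28.6%, with 66.7% on neither), and among USP genes outside the USP17 family 20 of 51 (39.2%). Over all protein coding genes 21.2% were on the high list. The F-box shares on the high list and on neither list lie near those of all genes. The low list held 3 of the 63 F-box genes, beside 18.1% of all protein coding genes.

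The 3 ubiquitin genes that the rule takes were all on the high list. UBB (chr17:16284113-16286054) encodes a chain of ubiquitin units head to tail. Translated from its GENCODE coding sequence, UBB held 3 copies of the 76 residue ubiquitin unit. RPS27A, a ubiquitin and ribosomal protein fusion gene whose symbol the rule does not take, held 1 copy and was on the high list too.

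Of 6 E1 enzymes, 5 were on the high list. UBA1 and UBA6 activate ubiquitin, UBA2 is a subunit of the SUMO activating enzyme and UBA3 a subunit of the NEDD8 activating enzyme. UBA7, which activates the interferon induced modifier ISG15, was on neither list, as was ISG15 itself. The partner subunits SAE1 (with UBA2) and NAE1 (with UBA3), outside the name pattern, were on the high list.

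The E2 class had 26 genes on the high list, 72.2% of 36 RefSeq genes. They included UBE2D2 and UBE2D3, which work with many ligases, UBE2L3, and UBE2R2, a partner of cullin ligases. UBE2C and UBE2S, which start and extend chains for the anaphase promoting complex, were on the list, and so were UBE2N and its cofactors UBE2V1 and UBE2V2, which make the chains used in DNA repair and immune signalling. UBE2A and UBE2B, which ubiquitinate histone H2B, were on it as well. UBE2G1, UBE2G2, UBE2J1 and UBE2J2, E2 enzymes of degradation at the endoplasmic reticulum, were listed together. Carriers of other modifiers on the high list included UBE2M for NEDD8 and UBE2L6 for ISG15. UBE2F, which also carries NEDD8, was on neither list, as were UBE2D1, UBE2D4, UBE2E2, UBE2L5, UBE2QL1, UBE2T, UBE2V1P16 and UBE2W. UBE2T acts with the Fanconi anaemia ligase.

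The low list held UBE2U (chr1:64669310-64733051) and UBE2NL (chrX:142967173-142968355), a copy of UBE2N (chr12:93800981-93836038). The deposited span of UBE2NL was 1183 bases, the shortest of the members, against 35058 bases for UBE2N. Reads of near-identical copies can be split in counting, so the membership of UBE2NL is uncertain. UBE2V1 lies wholly within the deposited spans of TMEM189-UBE2V1, a readthrough gene, and TMEM189, both on the high list, and its own level cannot be told apart from theirs by span. The amino acid triplet His-Pro-Asn, a motif known from E2 catalytic domains, was searched over the whole protein without regard to position. It was present in 16 of the 26 E2 genes of the high list and in UBE2U. The 10 without it were UBE2E1, UBE2E3, UBE2J1, UBE2J2, UBE2O, UBE2Q1, UBE2Q2, UBE2V1, UBE2V2 and UBE2Z.

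UBE3A, the ligase recruited by papillomavirus E6, UBE3B and UBE3C were on the high list, and UBE3D was on neither. The cullins CUL1, CUL2, CUL3, CUL4A, CUL4B and CUL5 were on the high list, 6 of 8 genes (75.0%). CUL7 and CUL9 were on neither. Of 23 partners of cullin ligases outside the name pattern, the high list held 14 and the low list 0, including the RING subunits RBX1 and RNF7, the adaptors SKP1 and DDB1 and the exchange factor CAND1. Of 10 subunits of the COP9 signalosome, which removes NEDD8 from cullins, 6 were on the high list.

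UBE3A (chr15:25582381-25684128) overlaps an antisense gene with the opposite membership. The long non-coding RNA gene SNHG14, on the low list, covers 82229 bases or 80.8% of the UBE3A span on the other strand. In neurons this transcript is known to silence the paternal UBE3A copy. The counting is not stated to use strand, so reads from UBE3A and SNHG14 cannot be told apart within the overlap.

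Of 36 FBXO genes in RefSeq, 13 (36.1%) were on the high list and 22 on neither, and FBXO18, now named FBH1, was on the high list by its older symbol. Those on the list included FBXO5, the inhibitor of the anaphase promoting complex also called EMI1, FBXO7, which binds the proteasome inhibitor PSMF1, and FBXO11, a receptor for BCL6. FBXO22, FBXO28 and FBXO38 were on it, while FBXO32 (atrogin, a muscle atrophy gene) and FBXO45 were on neither. FBXO40, another muscle F-box gene, was on the low list. FBXO28 lies wholly within the deposited span of PARP1, chr1:224102741-226595780, also on the high list. At 2493040 bases that span is the longest of the whole high list, and it was not checked against RefSeq. Whether FBXO28 and PARP1 themselves overlap is therefore not settled.

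The FBXW and FBXL receptors had fewer members. Of 10 FBXW genes, FBXW2, FBXW5 and FBXW11, a receptor for beta-catenin, were on the high list, FBXW12 was on the low list and 6 were on neither, including FBXW7, the receptor for cyclin E and MYC, and FBXW8. Of 17 FBXL genes, FBXL5, which senses iron, and FBXL6 were on the high list (11.8%), FBXL7 was on the low list and 14 (82.4%) were on neither. FBXL14, FBXL19 and FBXL20 were among those on neither. Of 7 F-box proteins with other names, 5 were on the high list (SKP2, CCNF, KDM2A, KDM2B and TCEB3), while BTRC, the close relative of FBXW11, was on neither.

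Among the deubiquitinases the high list held 20 USP genes. USP14 acts on the 19S particle itself, and USP5 takes apart free chains. USP7 acts on MDM2 and p53, USP1 on monoubiquitinated repair proteins, USP8 on receptors at endosomes, and USP22 on histones as part of the SAGA complex. USP9X and USP10 were on the high list, while USP28 and USP39 were among 28 genes on neither. With the USP17 family included, 26.3% of 76 RefSeq USP genes were on the high list, 4 genes on the low list and 68.4% on neither. Over all protein coding genes the shares were 21.2% high, 18.1% low and 60.8% neither. The high and neither shares of this wider USP set thus lie near those of all genes. Deubiquitinases of other families had 8 of 29 genes on the high list (such as BAP1, CYLD and OTUB1), beside the same 21.2% of all protein coding genes. Of the rest, 1 was on the low list (OTUD6A) and 20 on neither.

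The low list held 6 USP genes. USP9Y is the Y chromosome counterpart of USP9X. A line from a carcinoma of the cervix should carry no Y chromosome, so the membership of USP9Y is not read as a low level. USP26 (chrX:132158659-132231135) and USP29 (chr19:57631411-57643155) are related genes with coding sequence in a single exon. USP41 lies at chr22:20704868-20745048. USP17 (chr4:9326891-9328483) and USP17L5 (chr4:9341129-9342721) belong to a multicopy array, have spans of the same length (1593 bases) and lie 12645 bases apart. Of 25 RefSeq genes of the USP17 family, 24 were on neither list. Reads of such near-identical copies may be split or dropped in counting, so the low membership of USP17 and USP17L5 is uncertain.

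The symbol rule also took 2 antisense RNA genes, USP12-AS1 and USP12-AS2, both on the low list while USP12 was on the high list. USP12 runs over chr13:27640293-27746033 on the minus strand. USP12-AS1 (chr13:27736992-27743272) lies wholly inside it, and USP12-AS2 (chr13:27746396-27757135) starts 363 bases from the USP12 start on the other strand. As for UBE3A, overlapping reads of USP12 and USP12-AS1 cannot be told apart without strand.

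The position data, which the rule did not use, were examined next. By deposited position the members lay on 24 chromosomes, with USP9Y on the Y chromosome. The X chromosome held 8, of which the high list held 6 (UBA1, UBE2A, CUL4B, PSMD10, USP9X and USP11) and the low list 2 (UBE2NL and USP26). Of the 140 members, 18 (12.9%) overlapped another listed gene by deposited span, beside 11.6% of all 8967 rows of the lists. Head to head starts within 1000 bases, counted only where the genes do not overlap, were found for 4 members (2.86%), beside 2.85% of all rows. Genes on opposite strands that overlap at their starts, such as PSMA2 with MRPL32 (24 bases), were not counted. PSMA7 started 336 bases from SS18L1 and PSME3 133 bases from BECN1, an autophagy gene, with all 4 of these genes on the high list. The remaining counted pair was USP12 with USP12-AS2. Neighbouring members with like membership were PSME1 and PSME2, whose products form the same cap (4397 bases apart), UBE2Q2 and FBXO22 (2780), UBA1 and USP11 (17561), FBXW2 and PSMD5 (22083), and FBXO2 and FBXO44, which overlap by 308 bases.

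Gene span, the deposited distance from start to end, was shorter for the proteasome than for the ubiquitin enzymes. The median span was 16436 bases for the 43 proteasome genes of the high list and 50034.5 bases for the 82 ubiquitin genes of that list, with 33219 bases over the whole high list. Among the classes, USP genes on the high list had a median of 74047.5 bases, cullins 90568.5 and E2 genes 34944.5. The longest of them was USP34, at 283314 bases. The shortest member on the high list was UBB, at 1942 bases. The 15 members on the low list had a median of 22482 bases, beside 10921.5 over the whole low list, and ran from 1183 for UBE2NL to 439596 for FBXL7. The ranges of the members on the lists overlapped, and FBXL7 was longer than every member of the high list.

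**Figure D2:**
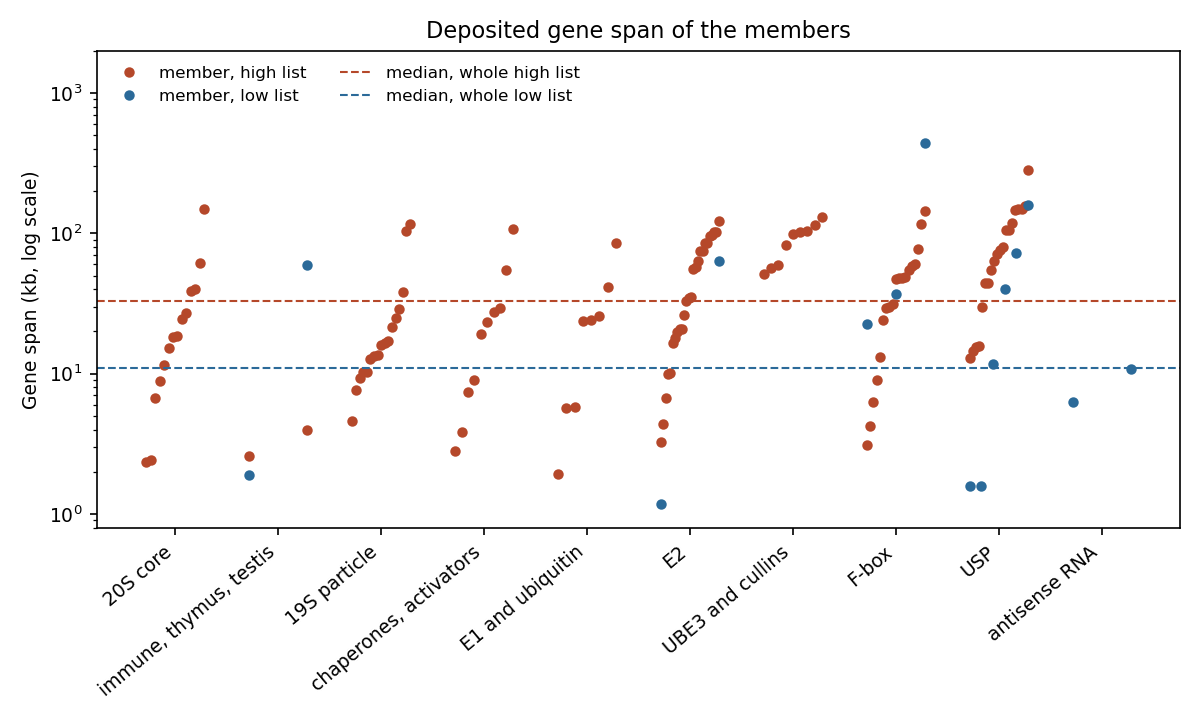
Each point is a member, placed by class along the x axis and by its deposited gene span in kb on a log y axis, red for the high list and blue for the low list. Dashed lines mark the medians of the whole lists, and the blue points lie at both ends of the scale, with UBE2NL and the USP17 pair lowest and FBXL7 highest.

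Coding structure was read from GENCODE 29, using the longest coding transcript of each gene. A coding sequence in 1 exon was found for 2 of 124 members of the high list with a model (1.61%), beside 2.43% of the whole high list. UBB was among them. Among members on the low list it was found for 4 of 11 (36.4%), beside 24.9% of the whole low list. The 4 were PSMB11, USP17L5, USP26 and USP29. The median number of coding exons was 9 for proteasome genes on the high list, 11 for ubiquitin genes, 6 for E2 genes, 20.5 for cullins and 21.5 for USP genes. The median coding length was 828 bases for proteasome genes and 3042 bases for USP genes of the high list.

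**Figure D3:**
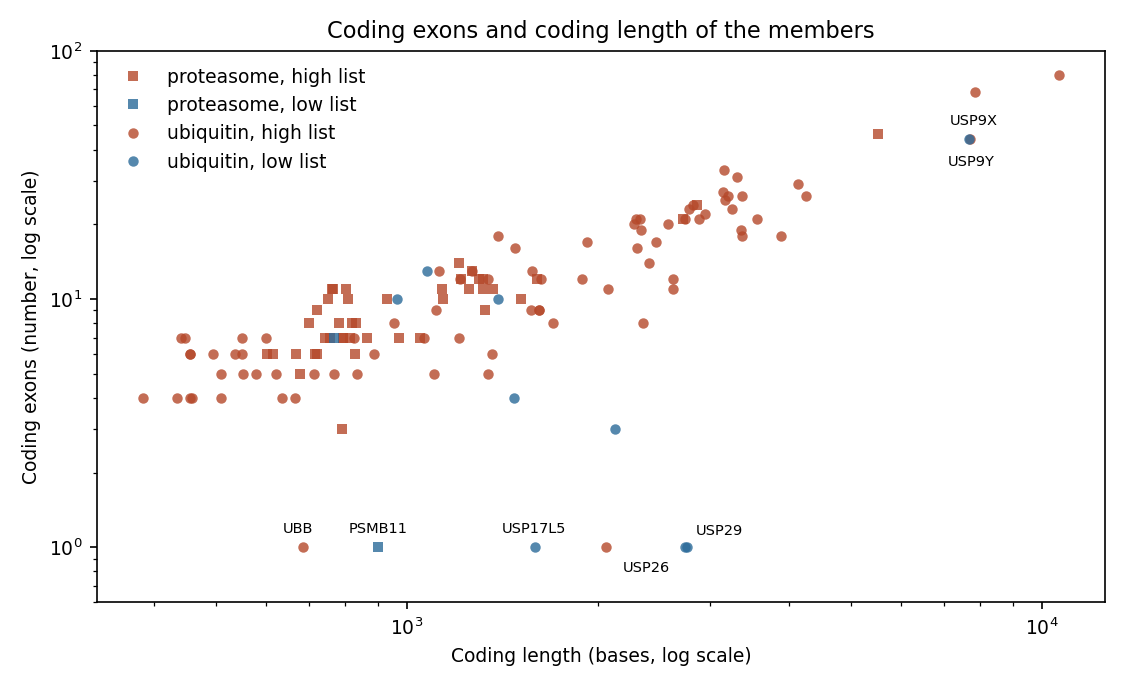
Each point is a member with a GENCODE coding model, with its coding length in bases on the x axis and its number of coding exons on the y axis, both on log scales. Squares are proteasome genes and circles ubiquitin genes, red for the high list and blue for the low list, and the 6 genes with 1 coding exon lie along the bottom.

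Some members on the low list have a close relative on the high list. PSMA8 and PSMA7 (chr20:60711791-60718486) shared 73.2% of coding bases over 99.9% of the shorter sequence. USP9Y and USP9X shared 89.8% over 99.9%. PSMB11 and PSMB5 shared 65.0% over 88.7%, which was close to the 65.1% between PSMB5 and its immunoproteasome counterpart PSMB8. For PSMB7 and PSMB10, both on the high list, identity was 64.6%, and for PSMB6 and PSMB9 it was 65.0%. UBE2D2 and UBE2D3, both on the high list, shared 86.6%. USP17L5 was nearest to USP36, at 62.4% over 90.5%. Different alpha subunits gave similar values. PSMA8 shared 63.5% over 93.4% with PSMA4, 59.4% over 96.6% with PSMA2 and 59.5% over 92.9% with PSMA3. Identity of the size seen for USP17L5 and USP36 therefore does not by itself mark a close relative. The other low members with a coding model were FBXL7, FBXO40, FBXW12, UBE2U, USP26, USP29 and USP41. For these, at most 5.9% of the shorter sequence aligned with the nearest member of the same class on the high list. Gaps at sequence ends were free of cost, so diverged relatives could align over few bases. PSMA8 and PSMA5, both alpha subunits, aligned over 1.0%. A low aligned share therefore does not show that a relative is absent. Pairs with identity as high as USP9X and USP9Y can exchange reads in mapping.

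Promoter sequence was available as RefSeq windows of 300 bases, from 250 before to 50 after the start, for 112 members, with the first listed start used for a gene that has several, 105 from the high list and 7 from the low list. CpG content was expressed as the ratio of observed CpG dinucleotides to those expected from the C and G content. The median ratio was 0.58 over all promoters, 0.882 over the whole high list and 0.291 over the whole low list. It was 0.775 for the 38 proteasome genes of the high list, 0.872 for the 67 ubiquitin genes of the high list and 0.896 for its E2 genes. Members of the high list with the lowest ratios were USP7 (0.068), PSMF1 (0.205), PSMB10 (0.329), FBXO28 (0.408) and CUL1 (0.427). Other starts of these genes gave higher ratios where RefSeq lists them. The highest ratio was 1.01 over the 3 windows of USP7, 0.858 over the 2 of PSMF1 and 0.988 over the 5 of CUL1, while PSMB10 and FBXO28 have 1 window each. The 7 members of the low list covered the range, with PSMB11 at 0.169, FBXW12 at 0.297, FBXO40 at 0.306, UBE2U at 0.499, USP29 at 0.645, PSMA8 at 0.922 and FBXL7 at 0.99. Ratios of members on the high and low lists thus overlapped, and PSMA8 lay above the median of the high list.

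**Figure D4:**
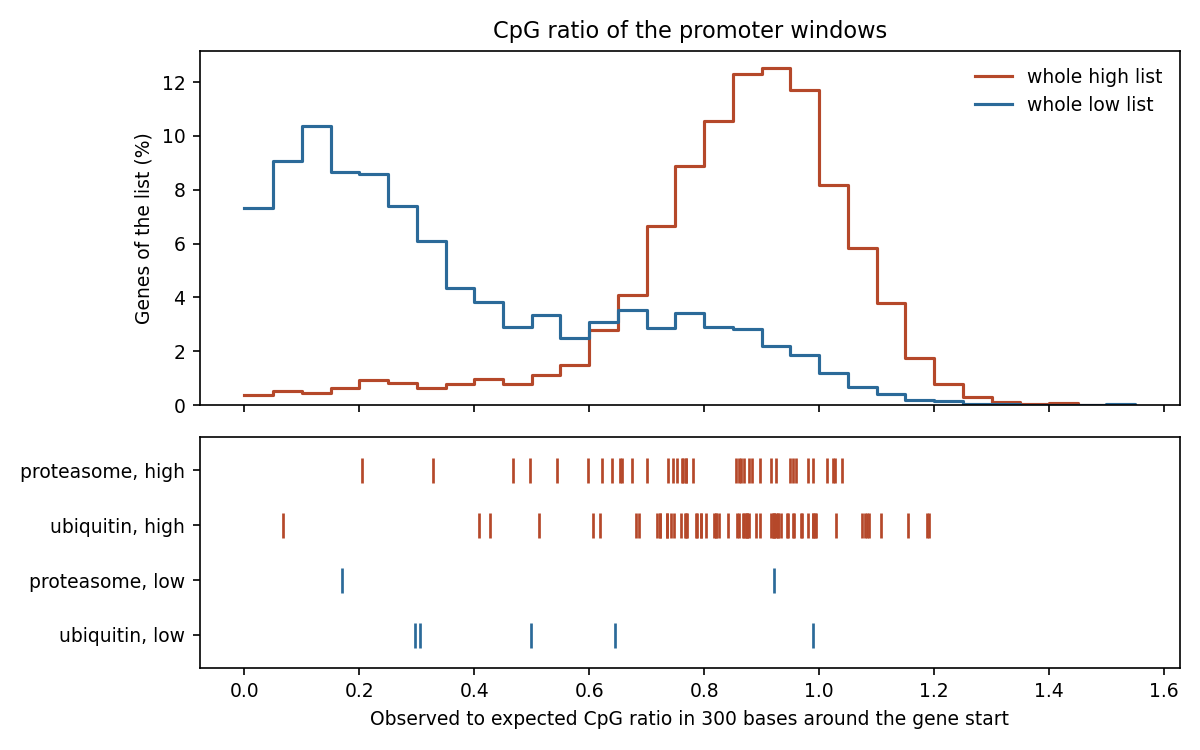
The upper panel gives the percentage of genes of the whole high list (red) and low list (blue) by the observed to expected CpG ratio of the promoter window, and each tick of the lower panel is a member. Ticks of the high list lie mostly under the red peak, while the 7 ticks of the low list range from 0.169 to 0.99.

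The antioxidant response element core TGACNNNGC, which the proteasome regulators NFE2L1 and NFE2L2 are known to bind, was searched on both strands. It was found in 12 of 38 proteasome promoters of the high list (31.6%, exact 95% binomial interval 17.5 to 48.7). The share was 16.4% for ubiquitin genes of the high list, 16.4% for the whole high list, 13.0% for the whole low list and 13.6% for all promoters. Within the 26 windows of core and 19S genes it was 5 (19.2%), with an interval of 6.55 to 39.4 that includes the share of the high list. The genes with a match were PSMB3, PSMC4, PSMD1, PSMD3, PSMD12, PSMD5, PSMD9, PSME1, PSME2, PSME4, PSMG1 and PSMG2, so that 7 of the 12 were caps and chaperones. NFE2L1 and NFE2L2 themselves were on the high list, with DDI2, the protease that activates NFE2L1, and MAFG, their partner. From the same list of 15 proteasome partners, 4 were on neither list, NGLY1 among them, and DDI1 was on the low list. KEAP1, from the cullin partners, was on the high list. Activity of these factors was not measured. Sites of a core subunit, an ATPase, lid subunits, a cap and a chaperone are printed here to show the core and its flanks, from RefSeq windows on GRCh38.p14, 5′ to 3′ on the strand of the gene, with the core in capitals.
PSMB3, chr17:38752627-38752655, plus strand: gcctccgtttTGACTTTGCaaccaaacta
PSMC4, chr19:39971182-39971210, plus strand: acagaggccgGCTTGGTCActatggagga
PSMD3, chr17:39980760-39980788, plus strand: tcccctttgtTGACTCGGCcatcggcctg
PSMD12, chr17:67366724-67366752, minus strand: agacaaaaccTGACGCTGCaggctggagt
PSME1, chr14:24136098-24136126, plus strand: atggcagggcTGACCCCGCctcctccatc
PSMG1, chr21:39183616-39183644, minus strand: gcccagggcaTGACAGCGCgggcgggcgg

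In the PSMC4 site the core reads on the strand opposite to the gene, and it begins at base 28, counting the start as base 1. The other 5 cores read with the gene. They begin 104 bases before the start in PSMB3, 37 in PSMD3, 165 in PSMD12, 86 in PSME1 and 183 in PSMG1, so they share no fixed distance from the start. A match of letters does not show that a factor binds.

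CCAAT was found in 14 of 26 windows of core and 19S genes (53.8%, interval 33.4 to 73.4). It was found in 44.7% of all proteasome windows of the high list, in 23.9% of ubiquitin windows, in 37.5% of the whole high list, 38.1% of the whole low list and 35.7% of all promoters. Genes with it included the alpha subunits PSMA2, PSMA3 and PSMA5, the beta subunits PSMB2, PSMB3 and PSMB5, the ATPases PSMC2, PSMC3 and PSMC5, and the lid subunits PSMD3, PSMD6, PSMD7, PSMD8 and PSMD14. The NRF1 palindrome, the site of nuclear respiratory factor 1, was found in 7 of 20 windows of E2 genes (35.0%, interval 15.4 to 59.2), and in 4 of 20 on the sense strand alone. The 7 on either strand were UBE2D3, UBE2G1, UBE2G2, UBE2J2, UBE2K, UBE2R2 and UBE2V1. Its share was 20.9% over ubiquitin genes, 13.2% over proteasome genes and 15.1% over the whole high list. The whole low list had it in 1.91% and all promoters in 6.28%. F-box genes of the high list had it in 5 of 16 windows (31.2%, interval 11.0 to 58.7), so the share was not particular to E2 genes.

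The ETS core CCGGAAG was present in 26.7% of the members of the high list, 22.6% of the whole high list, 3.86% of the whole low list and 10.7% of all promoters. TATAAA was present in 10.5% of proteasome windows (PSMC1, PSMC2, PSMC5 and PSMD8), in 2.99% of ubiquitin windows (UBE2S and USP16), in 5.06% of the whole high list and 20.1% of the whole low list. An E2F core, TTTGGCGC or TTTCCCGC, was found in 10.5% of proteasome windows (PSMA1, PSMB3, PSMD5 and PSMD9) and in 1.49% of ubiquitin windows (FBXO9), beside 5.2% of the whole high list. The YY1 core was found in 3.81% of members of the high list (PSMD11, FBXO21, FBXO28 and USP10), beside 2.64% of the whole high list, 0.033% of the whole low list and 0.916% of all promoters. All motifs were searched on both strands, and the intervals cover counting error over genes alone.

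**Figure D5:**
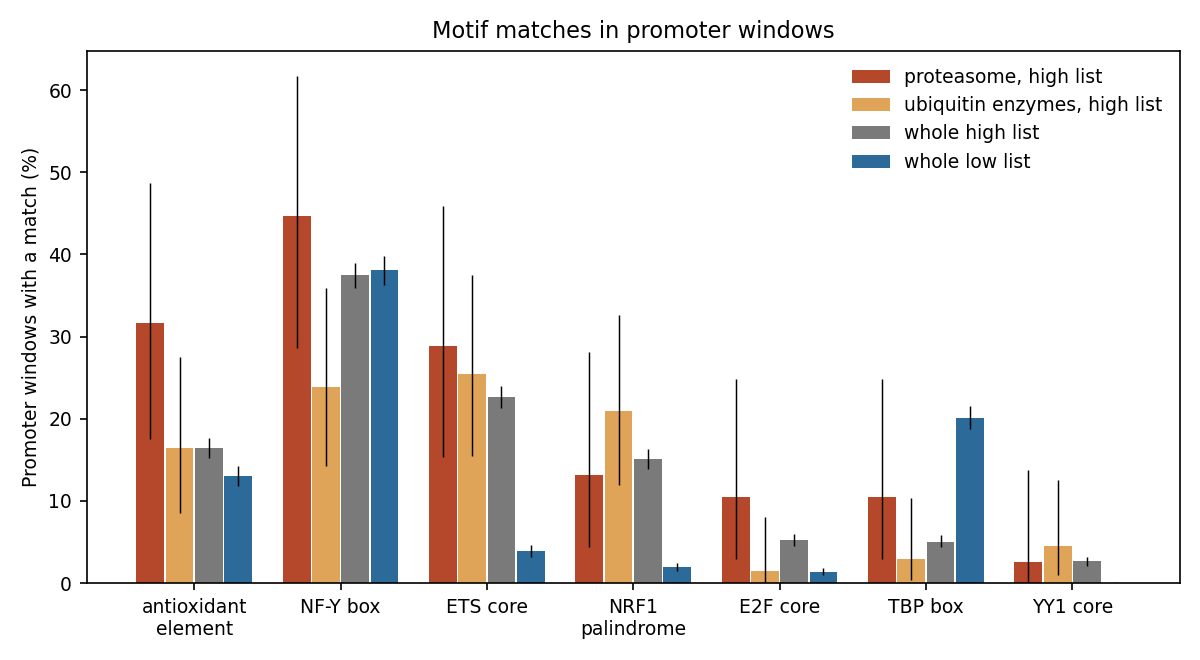
Bars give the percentage of promoter windows with a match to each motif for proteasome genes and ubiquitin enzymes of the high list and for the whole high and low lists, with exact 95% binomial intervals as lines. The intervals of the proteasome and ubiquitin bars overlap for every motif, and the proteasome bar for the antioxidant element stands at 31.6%.

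Genes of the wider pathway, taken from lists of 196 genes outside the name pattern, were distributed as 116 on the high list, 6 on the low list and 74 on neither, beside 21.2% and 18.1% of all protein coding genes on the high and low lists. These lists name well studied genes, and their counts are a description. Partners of the proteasome on the high list were 10 of 15, including the receptor ADRM1, the small lid subunit SHFM1, the maturation factor POMP and the deubiquitinase UCHL5. Shuttle factors and cofactors of the unfoldase VCP had 16 of 19 on the high list, including VCP, RAD23B and SQSTM1. Of 16 genes of the anaphase promoting complex 10 were on the high list, among them its activator CDC20. Other ligases had 29 of 50 on the high list, such as HUWE1, MDM2 and STUB1, and PARK2 (parkin) on the low list. Ubiquitin-like modifiers and ubiquitin genes with other names had 10 of 14 on the high list, among them NEDD8, SUMO2, SUMO3, UFM1 and RPS27A. The interferon inducible modifier UBD was on the low list. DDI1 stood on the low list and its relative DDI2 on the high list. UBQLNL stood on the low list and its relatives UBQLN1, UBQLN2 and UBQLN4 on the high list.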

How the data were processed

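Total RNA of the migrated and non-migrated SiHa fractions was sequenced as 3 libraries each. The authors deposited a list of high and a list of low expression genes, with positions but no values, and a table per locus of estimated counts of fragments and FPKM. Per the file headers that table is Cuffdiff output; per the submitters' processing notes, the build was hg19 and the tools were Cufflinks 2.2.1, Cuffdiff, TopHat2 and CASAVA 1.8.2. The labels and headers state no annotation, strand setting or list criterion. The index of a library in that table matches no sample label, so only library totals were used.

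Members were matched by symbol and classed by subunit or enzyme family. The members, classes and gene lists were chosen with earlier results of these data known. Named, apart from those not reported here, were every proteasome gene, in each ubiquitin class the members on the list that held fewer of that class and up to 10 well known members from the other list, and members in neighbouring pairs; further members were named beside position, coding or motif results after those were seen. Membership was compared with RefSeq protein coding genes (GRCh38.p14), promoters with RefSeq windows and coding structure with GENCODE 29, which was added after the files were seen. Identity comes from global alignment of the bases of coding sequences, with gaps at the ends free of cost. Intervals are exact 95% binomial intervals. The planned edgeR fit was not run, since loci carry no gene names, and no test was made on any member. Motif search and alignment were tested on simulated data. Python 3.11.15, pandas 2.3.3, numpy 2.4.6, scipy 1.17.1, biopython 1.88 and matplotlib 3.10.9 were used. Deposited spans were compared with RefSeq gene lengths for 136 members, and 3 (among them USP12-AS1 and PSMG2) were over 2-fold apart. RefSeq windows matched 112 of 140 members. Members without one include FBXL6, FBXO18, FBXO22, PSMA7, PSMB1, PSMB6, PSMB7, PSMD4, UBE2B, UBE2C, UBE2H, UBE2NL, UBE2Q1, UBE2V2, USP12-AS1, USP12-AS2, USP17, USP17L5, USP24, USP26, USP41, USP48, USP9X and USP9Y.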

Additional observations from a re-analysis of the deposited data

How the results depend on the processing

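Of 58 alternative values, 55 stayed within the interval or the 1.5-fold margin set for them (USP genes on the low list, 6 against 4 without the USP17 family, at its edge), and 1 moved further. The other 2 set the number of CpG in place of the CpG ratio and could be compared by direction alone, which was the same. Many of the 55 values were fixed in advance and show nothing about robustness. No member stood on both lists or on more than 1 row. The listed USP17 and antisense genes were all on the low list, so leaving them out could not change a high list count. With all gene types, pseudogenes included, in place of protein coding genes, the share of RefSeq genes of the name pattern on the high list was 26.1% instead of 50.2%, because pseudogenes enlarge the denominator. Adding listed genes whose RefSeq synonym matches the pattern gave 135 high and 16 low members, among them ADRM1, SHFM1, RPS27A and SKP2. Leaving out the USP17 family gave 13 members on the low list and a share of 55.9% on the high list. The match to the antioxidant element in proteasome promoters was 26.3% on the sense strand alone, beside 8.81% of the whole high list, 7.0% of all promoters and 2.99% of ubiquitin genes on that strand, and the NRF1 palindrome in E2 promoters was found in 4 of 20 beside 9.22% of the whole high list. The antioxidant element was at 36.8% with any start window of a gene, beside 20.9% of the whole high list, an alternative chosen after seeing the data, as were 3 others (antisense genes left out, RefSeq synonyms in the share, and head to head starts within 5000 bases). No paired analysis was possible because the results come from gene lists with no samples and no test. For the same reason, leaving out replicates, DESeq2 and the low count filter were not run. With no value per library for a member, sequencing depth sets no interval on any membership.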
